A study of Mus musculus with 24 samples.

Results

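The combination of the immunotoxin D2C7-IT and the CD40 antibody aCD40 was set against its vehicle control in mouse brain tumours taken 3 days after treatment. The comparison held 3 tumours of each group, 6 of the 24 tumours of the series, chosen by the treatment and the day in their labels, and covered all genes. All tumours grew from 200000 cells of CT-vIII (CT-2A-dmEGFRvIII-Firefly Luciferase), 1 line of the mouse glioma CT-2A transduced with mouse EGFR variant III and firefly luciferase and placed in the right hemisphere of the brain. On day 6 after implantation an osmotic pump began to infuse the brain at 0.5 µl/h, and it was removed 72 h later, on day 9. Combination tumours received D2C7-IT at 0.2 µg with aCD40 at 10 to 300 µg, and the labels give this range without the dose of single tumours. Vehicle tumours received 2% MSA-PBS, a mouse serum albumin solution, with a rat IgG2a control antibody at 100 µg. Day 3 is 3 days after pump removal and day 0 is the time of removal. No strain, age or sex of the mice is stated in the labels.

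D2C7-IT joins an antibody fragment that binds EGFR and its variant III to a part of Pseudomonas exotoxin, which inactivates elongation factor 2 and so stops protein synthesis in the cells that take it up. CD40 is a receptor of dendritic cells, macrophages and B cells that signals through NF-kB and raises chemokines, costimulatory molecules and antigen presentation. Interferon-gamma, made by T and NK cells, induces the proteins that load and display antigens and the guanylate-binding proteins of the Gbp family.

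RNA was enriched for polyadenylated transcripts from whole frozen tissue, and each library of the 6 held 36801729 to 41966128 reads counted to genes. Levels are CPM, the counts of a gene per 1000000 counted reads of its library, listed for tumours 1, 2 and 3 by the replicate numbers of the labels. These numbers name the tumours and set no order. Where a pair of such lists follows a gene's name, vehicle comes first and the combination second. Fold changes are log2 ± SE from edgeR, in which 22280 genes were tested, and a gene was called at an adjusted p under 0.05. The smallest p that an exact permutation test of 3 against 3 tumours can give is 0.1, so single genes were tested only in the fit across all genes. In unsorted tissue, fewer cells of a type and less RNA per cell cannot be told apart.

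The level of Egfr, the marker of tumour cells here, ranged more widely among the vehicle tumours than among the combination tumours. Egfr, whose reads can come from the transgene or the mouse gene (chromosome 11, 16752203 to 16918158, GRCm38), stood at 12.9, 289 and 357 CPM in the vehicle tumours and at 22.4, 18.9 and 21.8 CPM in the combination tumours. Vehicle tumours 2 and 3 were rich in Egfr, vehicle tumour 1 was below every combination tumour, and the groups overlapped. The combination minus vehicle difference of mean log2 CPM was -2.39 (two-sided exact permutation p = 0.4), and the fitted fold change was -3.39 ± 1.04 (adjusted p = 0.109). Among the other day 3 groups, D2C7-IT tumours held 21.02, 21.3 and 28.2 CPM and aCD40 tumours 336, 15.8 and 19.9 CPM, so that aCD40 tumour 1 was also rich in Egfr.

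Markers of brain and of dividing cells split the vehicle tumours in the same way. The 24 genes of the cell cycle and DNA replication list averaged 1.63, 6.48 and 6.41 log2 CPM in vehicle tumours and 2.22, 2.90 and 2.84 in combination tumours. The neuron list, 18 genes, averaged 8.89, 7.48 and 7.30 in vehicle and 8.75, 8.71 and 8.67 in the combination, close to vehicle tumour 1 alone. Over all genes tested, the 3 combination tumours lay above vehicle tumour 1 and below vehicle tumours 2 and 3 in 17.9% of genes, and in the opposite place in 9.98%. Results are therefore given beside vehicle tumour 1 as well as beside the group. The fit against that tumour alone takes it to vary like the other groups, and its medians have no spread of their own.

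**Figure D1:**
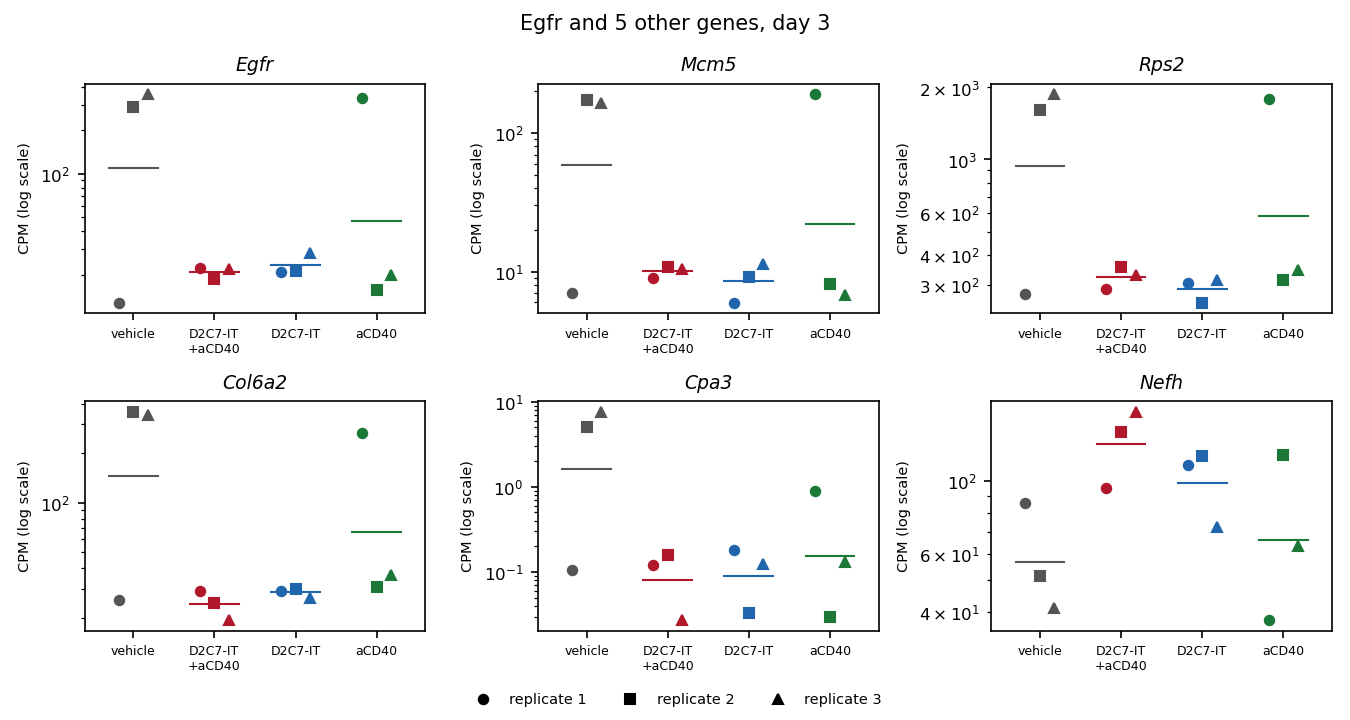
Levels of Egfr, Mcm5, Rps2, Col6a2, Cpa3 and Nefh in CPM on log axes, in the 3 tumours of each day 3 group, with a symbol for each replicate number and a line at the mean of log2 CPM. Vehicle tumours 2 and 3 and aCD40 tumour 1 hold the most Egfr, Mcm5, Rps2 and Col6a2. The combination tumours lie near vehicle tumour 1 for these 4 genes. They lie above every vehicle tumour for Nefh, as for no other gene of the neuron list.

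In this comparison 9 genes rose (0.0404% of those tested) and 0 fell (0.0%). At an unadjusted p under 0.05, without correction, 1579 genes were higher (7.09%) and 3773 lower (16.9%), and the median log2 fold change over all genes was 0.01. Counts of list members against vehicle at that threshold are to be read beside these shares. The 9 genes with GRCm38 positions were Acer2 (chromosome 4, 86874396 to 86934822), Slc2a1 (chromosome 4, 119108711 to 119137983), Usp53 (chromosome 3, 122931493 to 122984510), Ddit3 (chromosome 10, 127290774 to 127296288), Aloxe3 (chromosome 11, 69125896 to 69149115), Myo15 (chromosome 11, 60469339 to 60528369), Epb42 (chromosome 2, 121017891 to 121037072), Psca (chromosome 15, 74714839 to 74717069) and the long non-coding RNA Gm11274 (chromosome 13, 21769125 to 21770476). The last falls outside the naming rule and was added after its values were seen.

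Acer2, an alkaline ceramidase of the Golgi that releases sphingosine, held 11.7, 7.79 and 6.50 CPM in vehicle and 28.6, 30.4 and 32.6 CPM in the combination. All combination tumours stood above all vehicle tumours, and the fold change was 1.78 ± 0.26 (adjusted p = 0.0263). Slc2a1, the glucose transporter GLUT1 of the blood-brain barrier and of hypoxic cells, held 94.9, 85.9 and 75.1 CPM and 165, 183 and 194 CPM in the same order (1.05 ± 0.17, adjusted p = 0.0263). Usp53, a member of the ubiquitin protease family found at cell junctions, held 21.1, 19.2 and 19.8 CPM and 37.2, 36.0 and 35.7 CPM (0.83 ± 0.14, adjusted p = 0.0446). These 3 genes differed little among the combination tumours and were high in all of them. Vehicle tumour 1, poor in Egfr, was the highest of the vehicle tumours for each.

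Ddit3, which encodes the stress transcription factor CHOP, held 23.2, 23.5 and 25.5 CPM in vehicle and 33.5, 78.2 and 76.0 CPM in the combination (1.34 ± 0.22, adjusted p = 0.0313). Its vehicle levels were alike in tumours rich and poor in Egfr, and combination tumour 1 lay closer to vehicle than the other 2. Aloxe3, a lipoxygenase of hydroperoxide metabolism, held 6.00, 1.67 and 2.06 CPM and 15.1, 47.2 and 41.6 CPM (3.35 ± 0.58, adjusted p = 0.0446). Its groups did not overlap, with combination tumour 1 again the lowest of its group.

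Myo15, an unconventional myosin of hair cell stereocilia, held 0.374, 0.357 and 0.187 CPM in vehicle and 2.02, 6.61 and 8.26 CPM in the combination (4.13 ± 0.64, adjusted p = 0.0263). Epb42, a membrane skeleton protein of red cells, held 0.0800, 0.0715 and 0.0802 CPM and 0.706, 3.62 and 4.02 CPM (5.06 ± 0.81, adjusted p = 0.0263). Gm11274 held 0.560, 0.262 and 0.241 CPM and 1.78, 4.87 and 6.06 CPM (3.51 ± 0.56, adjusted p = 0.0263). All 3 were low transcripts, and combination tumour 1 was the lowest of its group for each. Psca, a small cell surface protein anchored by a lipid, had no read in any vehicle tumour and 0.244, 4.42 and 1.63 CPM in the combination tumours, 240 reads in all. That is at least 80.4-fold higher against 3 counts over the vehicle group (adjusted p = 0.0313), a bound that covers counting error only.

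Combination tumour 1 was also the lowest of its group in the ependymal and choroid plexus list. Its summed level was 36.6, 21.02 and 27.6 CPM in vehicle and 42.0, 637 and 562 CPM in the combination, so that combination tumours 2 and 3 held choroid plexus RNA and tumour 1 held little more than vehicle. Folr1, a folate receptor of the choroid plexus, held 0.107, 0.191 and 0.0267 CPM and 0.268, 8.02 and 6.44 CPM, and Kl, which encodes klotho, 4.80, 0.286 and 1.74 CPM and 10.1, 34.3 and 27.0 CPM. In D2C7-IT tumours the list summed to 34.0, 1199 and 68.2 CPM, while Myo15 held 4.75, 6.80 and 2.89 CPM, Epb42 1.70, 3.20 and 1.02 CPM and Psca 2.32, 3.07 and 0.623 CPM. D2C7-IT tumour 1 had a summed level inside the vehicle range and held the 3 transcripts above the vehicle tumours. The part of choroid plexus RNA in the levels of the called genes was not tested.

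**Figure D2:**
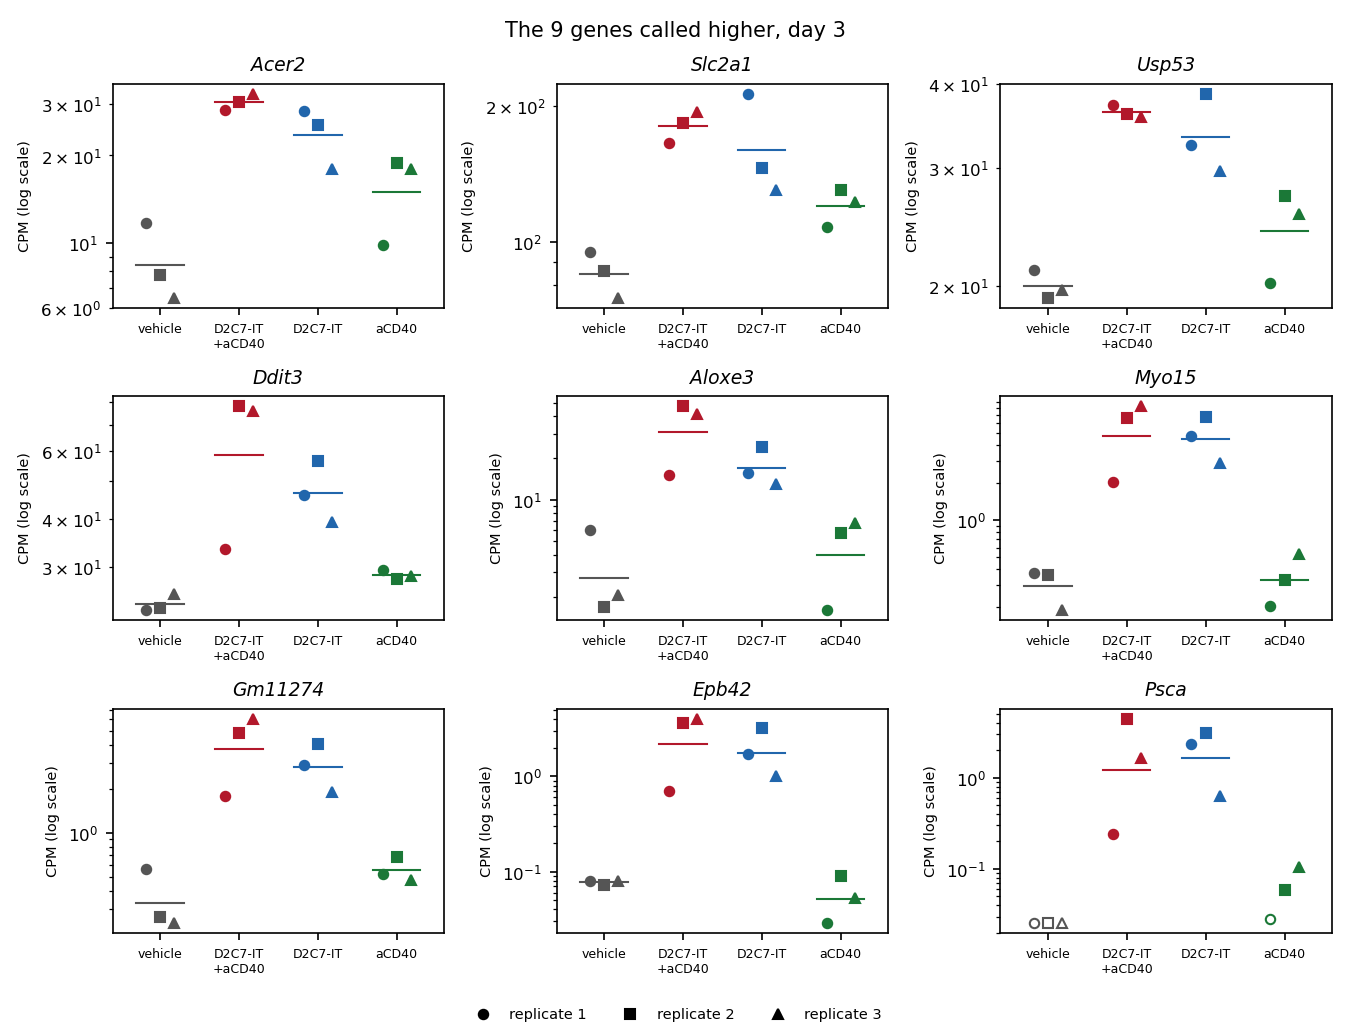
The 9 genes called higher in the combination, in CPM on log axes, in the 3 tumours of each day 3 group, with a line at the mean of log2 CPM. Open symbols mark 0 reads and are drawn at 3 counts over the libraries of that group, which then has no line. Combination tumours lie above vehicle tumours for every gene shown, and D2C7-IT tumours lie above vehicle as well.

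The 9 genes were also set against D2C7-IT alone, which shares the vehicle tumours with the combination, without a test of equal levels. Their log2 fold changes of the combination against D2C7-IT ran from -0.04 ± 0.78 in Psca to 0.90 ± 0.54 in Aloxe3, and none was called in that fit. Against aCD40, they ran from 0.54 ± 0.14 in Usp53 to 5.48 ± 0.84 in Epb42, with none called. Fitted on the 6 libraries alone, no gene was called and 2722 had an unadjusted p under 0.05. Leaving out combination tumour 2 or 3, or vehicle tumour 2 or 3, gave 0 calls with 2557 to 3954 genes at an unadjusted p under 0.05. Without combination tumour 1 there were 129 calls, 126 higher (0.566%) and 3 lower (0.0135%), the last being Phtf1, Mest and Islr. Without vehicle tumour 1 there were 6956, 2719 higher (12.2%) and 4237 lower (19.0%). All 9 genes were among the calls of both of these fits. Beside vehicle tumour 1 alone the fold changes of the 8 genes with vehicle reads ran from 0.68 in Usp53 to 4.95 in Epb42, and none was called.

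Further genes with the smallest p had groups that did not overlap but missed the threshold, and 6 of them are given here. Zhx2, a zinc finger repressor, held 18.8, 17.4 and 16.4 CPM in vehicle and 32.1, 53.2 and 53.2 CPM in the combination (adjusted p = 0.0503), and Galnt15, a glycosyltransferase, 5.18, 4.55 and 4.68 and 15.0, 15.7 and 14.3 CPM (adjusted p = 0.0671). Cfap53, a protein of motile cilia, held 0.320, 0.119 and 0.214 CPM and 0.974, 7.34 and 5.43 CPM (adjusted p = 0.0776), with combination tumour 1 the lowest of its group. On the lower side, Phtf1, a membrane protein of the endoplasmic reticulum, held 49.0, 60.2 and 58.3 CPM in vehicle and 38.6, 38.1 and 38.4 CPM in the combination (-0.57 ± 0.11, adjusted p = 0.0815). Ppp1ca, a catalytic subunit of protein phosphatase 1, held 236, 371 and 395 CPM and 162, 199 and 191 CPM (adjusted p = 0.084), and Sh3pxd2a, a scaffold of invasive cell feet, 95.1, 159.7 and 183 and 66.7, 61.8 and 54.4 CPM (adjusted p = 0.0941). For these 3 the combination tumours were also below vehicle tumour 1, which the choice of genes without overlap made certain.

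Several genes of the target receptor's family and pathway were highest in vehicle tumours 2 and 3. In the EGFR family and ligand list 0 of 13 tested members were called, 5 were lower and 0 higher at an unadjusted p under 0.05, and the median was -0.89. Over all genes 16.9% were lower and 7.09% higher at that threshold. Erbb2, a partner receptor of EGFR, held 5.26, 29.3 and 31.1 CPM in vehicle and 4.38, 4.66 and 6.11 CPM in the combination (-2.13 ± 0.65, adjusted p = 0.109). The feedback targets of the MAPK pathway downstream of the receptor split, with 0 of 15 called, 2 higher and 5 lower at an unadjusted p under 0.05 and a median of -0.08. Ccnd1, which encodes cyclin D1, held 48.3, 657 and 689 CPM and 72.1, 76.2 and 78.6 CPM, and the transcription factor Etv4 held 9.69, 51.0 and 58.3 CPM and 12.9, 9.16 and 10.1 CPM, both highest in vehicle tumours 2 and 3. The immediate early gene Egr1 held 265, 163 and 102 CPM and 368, 1134 and 490.1 CPM, and the stress-induced survival gene Ier3 8.11, 7.96 and 8.48 CPM and 16.6, 30.0 and 23.9 CPM, both above all vehicle tumours (adjusted p = 0.116 and 0.109).

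Proliferation genes showed the widest gap of the pathway lists. All 24 cell cycle members were lower at an unadjusted p under 0.05, 0 were called, and the median log2 fold change was -3.23. For 23 of the 24, the combination tumours lay above vehicle tumour 1 and below the other 2, against 17.9% of all genes. Mcm5, a subunit of the replicative helicase, held 7.04, 173 and 166 CPM in vehicle and 8.96, 10.8 and 10.5 CPM in the combination, and Ccna2, which encodes cyclin A2, 3.87, 135 and 135 and 4.90, 7.60 and 7.85 CPM. Against vehicle tumour 1 alone the list's median was 1.14, the reverse sign, and against D2C7-IT it was 0.12. The 20 ribosomal protein genes behaved alike, with a median of -0.66 and all 20 between vehicle tumour 1 and the other 2. Rps2, a protein of the small subunit, held 275, 1602 and 1879 CPM and 288, 354 and 331 CPM.

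Matrix and stromal genes were also low beside the vehicle tumours rich in Egfr. Of 23 collagen and matrix genes, 12 were lower and 1 higher at an unadjusted p under 0.05, with a median of -1.44 and 0 called. Col6a2, a chain of collagen VI, held 25.6, 359.5 and 342 CPM in vehicle and 29.4, 24.8 and 19.4 CPM in the combination, where vehicle tumour 1 lay inside the combination's range. Postn, the matrix protein periostin, held 4.70, 68.1 and 83.4 CPM and 3.39, 2.65 and 2.77 CPM, below every vehicle tumour (-4.15 ± 1.10, adjusted p = 0.108). Mast cell markers had the lowest median of the cell lists, -4.52 over 8 genes. Of these, 6 were lower and 0 higher at an unadjusted p under 0.05, 2 had positive fold changes, and 0 were called. Their summed level overlapped, at 41.2 to 64.2 CPM in vehicle and 26.3 to 66.5 CPM in the combination. Cpa3, a mast cell carboxypeptidase, held 0.107, 5.08 and 7.65 CPM and 0.122, 0.156 and 0.0272 CPM (adjusted p = 0.0834), and Cma1, a chymase, 0.160, 4.84 and 9.06 and 0.244, 0.130 and 0.0815 CPM (adjusted p = 0.106). Every other day 3 tumour held under 1 CPM of both, and beside vehicle tumour 1 alone the median was 0.23.

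The target of the toxin showed no call. Eef2, which encodes elongation factor 2, held 1282, 2226 and 2189 CPM in vehicle and 1434, 1563 and 1611 CPM in the combination (-0.33 ± 0.22, adjusted p = 0.349). The combination tumours lay between vehicle tumour 1 and the other 2. In the list of elongation factors and of diphthamide synthesis, which makes the residue that the toxin modifies, 0 of 13 were called, with 1 higher and 5 lower at an unadjusted p under 0.05. Over all genes 7.09% were higher and 16.9% lower at that threshold. Dph2 held 11.1, 23.9 and 26.1 CPM and 8.57, 10.6 and 11.6 CPM, overlapping between groups, and Dph6 held 22.97, 24.7 and 27.1 CPM and 18.3, 18.3 and 16.7 CPM, without overlap (adjusted p = 0.109).

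Several stress and p53 target genes stood above vehicle tumours of both kinds. Besides Ddit3, Ppp1r15a, the phosphatase subunit that restarts translation after stress, held 12.9, 18.5 and 18.2 CPM in vehicle and 20.5, 122 and 82.7 CPM in the combination (2.14 ± 0.51, adjusted p = 0.104). Cdkn1a, which encodes the cell cycle inhibitor p21, held 27.2, 35.1 and 44.1 CPM and 75.3, 219 and 134 CPM (1.97 ± 0.46, adjusted p = 0.104). Gdf15, a secreted stress cytokine, held 0.374, 0.691 and 0.348 CPM and 2.85, 13.2 and 10.8 CPM (4.19 ± 1.05, adjusted p = 0.108). No combination tumour overlapped vehicle for these 3, with combination tumour 1 the lowest of its group each time. Pdia4, a disulfide isomerase of the endoplasmic reticulum, held 44.2, 246 and 277 CPM and 55.6, 53.8 and 52.6 CPM, highest in vehicle tumours 2 and 3.

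The lists as a whole did not lean one way. In the integrated and ER stress list 1 of 17 members was called, Ddit3, 4 were higher and 5 lower at an unadjusted p under 0.05, and the median was -0.20. In the p53 and apoptosis list 0 of 17 were called, 3 were higher and 4 lower, and the median was 0.16. Over all genes 7.09% were higher and 16.9% lower at that unadjusted threshold. Of 15 hypoxia and glycolysis genes 1 was called, Slc2a1, 4 were higher and 0 lower, and 6 had combination tumours above all vehicle tumours, against 9.78% of all genes. Ndrg1, a hypoxia-induced gene also made by oligodendrocytes, held 75.5, 55.5 and 43.3 CPM and 134, 113 and 161 CPM. Vegfa, the vascular growth factor, held 87.5, 88.3 and 86.6 CPM and 139.8, 128 and 127 CPM, with vehicle tumours within 2 CPM of each other (adjusted p = 0.165).

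Of 17 myeloid chemokine and receptor genes 0 were called, 10 had negative fold changes, and the median was -0.09. At an unadjusted p under 0.05, 3 were higher and 1 lower, and 3 had combination tumours above all vehicle tumours, against 9.78% of all genes. Cxcl1, a ligand of the neutrophil receptor CXCR2, held 0.133, 0.286 and 0.0802 CPM in vehicle and 2.27, 23.4 and 22.6 CPM in the combination (6.49 ± 1.25, adjusted p = 0.0776). Cxcl2, a second ligand, held 0.0534, 0.334 and 0.214 CPM and 0.463, 4.48 and 2.28 CPM, and Csf3, which encodes granulocyte colony-stimulating factor, 0.0800, 0.0477 and 0.160 and 0.0731, 2.99 and 1.79 CPM. Combination tumour 1 was the lowest of its group in all 3, and for Csf3 it lay inside the vehicle range. Of 16 pro-inflammatory cytokine genes 0 were called, 5 were higher and 0 lower at an unadjusted p under 0.05, and the median was 0.42. Il1a, the cytokine interleukin-1 alpha, held 2.11, 1.93 and 1.82 CPM and 6.94, 9.50 and 4.24 CPM, and Il33, an alarmin of glia, 42.4, 32.6 and 33.5 and 57.1, 72.5 and 76.1 CPM, neither overlapping. D2C7-IT tumours held 28.5, 10.4 and 11.7 CPM of Cxcl1 and 4.60, 0.891 and 1.72 CPM of Csf3, overlapping the combination.

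Neutrophil markers summed to 29.3, 74.7 and 65.9 CPM in vehicle and 74.8, 188 and 246 CPM in the combination. Lcn2, an iron-binding protein also made by reactive astrocytes and choroid plexus, made up 8.06, 16.8 and 12.9 CPM and 24.9, 151 and 196 CPM of these sums. Without it, a sum added after the values were seen, the other markers held 21.2, 57.9 and 52.9 CPM and 49.9, 37.2 and 50.2 CPM, so that the combination tumours lay above vehicle tumour 1 and below the other 2. Of 14 markers 12 passed the filter on low counts, with Ly6g and Retnlg left out. Among them 0 were called, 3 were higher and 1 lower at an unadjusted p under 0.05, and the groups did not overlap in 6, of which 5 were higher, against 9.78% of all genes, and 1 lower, against 4.87%. S100a8 and S100a9, the subunits of calprotectin, held 0.0800, 0.334 and 0.160 and 0.133, 0.262 and 0.0267 CPM in vehicle and 0.560, 0.859 and 0.870 and 0.536, 1.17 and 0.679 CPM in the combination. Combination tumours were above vehicle for both (adjusted p = 0.109 and 0.104).

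The first base of the Cxcl1 transcript lies on chromosome 5, and the 300 bases around it, from RefSeq (GRCm38.p6), are shown because its combination tumours stood furthest above vehicle among the chemokines named. Capitals mark matches to the NF-kB letters, GGG and after any 5 bases CC, which overlap within each marked stretch.
Cxcl1: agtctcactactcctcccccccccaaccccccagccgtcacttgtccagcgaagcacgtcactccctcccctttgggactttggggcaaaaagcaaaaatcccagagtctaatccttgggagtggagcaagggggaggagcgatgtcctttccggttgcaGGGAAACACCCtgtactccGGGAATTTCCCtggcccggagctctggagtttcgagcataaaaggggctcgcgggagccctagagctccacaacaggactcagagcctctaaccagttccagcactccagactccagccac
This window, chr5:90890995-90891294 on the plus strand, holds 4 matches counted on both strands, the first beginning 90 bases before the start. The letters are loose: 50.8% of all 32851 promoter windows and 53.5% of 27025 genes held a match. In the myeloid chemokine list 7 of 13 matched members did, near the share of all genes.

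CD40 and NF-kB targets went both ways. Of 22 members tested, 0 were called, 13 had negative fold changes, and the median was -0.11. At an unadjusted p under 0.05, 4 were higher and 0 lower, and 5 had combination tumours above all vehicle tumours, against 9.78% of all genes, while 12 lay between vehicle tumour 1 and the others, against 17.9%. For 21 of the 22 the combination tumours were above vehicle tumour 1, against 36.3% of all genes. Ccl22, a chemokine of activated dendritic cells for regulatory and helper T cells, held 0.454, 4.69 and 5.35 CPM in vehicle and 16.6, 34.5 and 14.8 CPM in the combination (2.63 ± 0.70, adjusted p = 0.108). Every combination tumour exceeded every vehicle tumour, although vehicle tumours 2 and 3 stood well above tumour 1. Icam1, an adhesion molecule, held 6.67, 26.6 and 26.3 CPM and 28.9, 125 and 108 CPM, and Cd83, a marker of mature dendritic cells, 21.7, 21.4 and 20.6 and 50.5, 34.7 and 40.1 CPM. The dendritic cell list, which includes Ccl22, did not rise as a whole. Of its 15 members 0 were called, 10 had negative fold changes, and the median was -0.35. At an unadjusted p under 0.05, 3 were higher and 3 lower, against 7.09% and 16.9% of all genes. Cd40 itself held 0.907, 12.6 and 11.1 CPM and 6.07, 11.8 and 8.12 CPM (0.06 ± 0.82, adjusted p = 0.969), above vehicle tumour 1, with combination tumours 1 and 3 below the other 2 and combination tumour 2 between those.

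Interferon-gamma response genes lay between the kinds of vehicle tumour. Of 24 members, 0 were called, none passed an unadjusted p under 0.05, and the median log2 fold change was -0.46. Combination tumours were all above vehicle tumour 1 in 23, against 36.3% of all genes. In 17 they were also all below vehicle tumours 2 and 3, against 17.9%. Gbp4, a guanylate-binding protein, held 6.64, 162 and 203 CPM in vehicle and 39.3, 65.3 and 55.3 CPM in the combination, and Psmb8, an immunoproteasome subunit, 12.6, 225 and 248 and 52.1, 81.0 and 75.7 CPM. Cxcl9, the chemokine that draws T cells through CXCR3, held 0.267, 74.7 and 81.5 CPM and 16.8, 24.5 and 23.6 CPM. For all 3 the order was vehicle tumour 1, the combination, then vehicle tumours 2 and 3, and fold changes were -1.23 ± 0.88, -1.24 ± 0.85 and -1.28 ± 1.21. Beside vehicle tumour 1 alone the list's median was 2.69.

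The type I interferon and antigen presentation lists had the same order. Of 24 type I interferon genes, 22 lay above vehicle tumour 1 and below the others, against 17.9% of all genes, with a median of -0.96. Bst2, the antiviral tetherin, held 23.7, 384 and 489 CPM in vehicle and 55.6, 90.3 and 95.9 CPM in the combination, and Oas2, a sensor of double-stranded RNA, 10.0, 78.1 and 90.1 and 14.8, 19.1 and 16.4 CPM. All 16 MHC class I presentation genes lay in that place, with a median of -1.14. H2-T22, a non-classical class I molecule, held 29.7, 362 and 388 CPM and 60.6, 75.6 and 73.2 CPM, and H2-Q7, another, 8.51, 423 and 454 and 54.0, 126 and 79.5 CPM. Reads of H2 genes can be split between near-identical copies, so these 2 values are uncertain. Of 11 MHC class II genes 9 lay there, among them Cd74, the invariant chain (23.8, 885 and 742 CPM and 196, 278 and 210.2 CPM), and H2-Ab1 (10.1, 391 and 331 CPM and 73.5, 118 and 88.8 CPM). None of these 3 lists had a call.

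Lymphocyte genes followed. All 10 NK cell genes and 12 of 16 T cell genes lay between vehicle tumour 1 and the others, against 17.9% of all genes. Their medians were -1.78 and -0.62, with 0 called. Cd8a, a coreceptor of cytotoxic T cells, held 0.427, 21.1 and 12.1 CPM in vehicle and 4.75, 9.58 and 4.89 CPM in the combination (-0.83 ± 0.97, adjusted p = 0.602). Klrk1, an activating receptor of NK and T cells, held 0.320, 11.3 and 12.1 CPM and 1.49, 1.77 and 1.90 CPM. Every combination tumour held more than vehicle tumour 1 and less than the other 2 for both genes. Among cytotoxic genes Gzmb, a granzyme, held 0.267, 29.6 and 32.0 CPM and 2.66, 4.94 and 2.36 CPM (adjusted p = 0.191), Prf1, the pore protein perforin, 0.240, 6.77 and 7.99 and 1.02, 1.09 and 1.14 CPM, and Ifng 0.0534, 2.31 and 3.34 and 0.560, 1.33 and 0.489 CPM. Gzmm, a granzyme of innate lymphocytes, stood otherwise, at 1.95, 2.72 and 3.37 CPM and 2.39, 8.02 and 7.31 CPM, with combination tumours 2 and 3 above all vehicle tumours (adjusted p = 0.113). Cd274 encodes PD-L1, which restrains T cells, and held 6.75, 50.3 and 55.1 CPM and 44.2, 66.2 and 74.7 CPM (0.70 ± 0.78, adjusted p = 0.582), overlapping the vehicle tumours rich in Egfr.

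**Figure D3:**
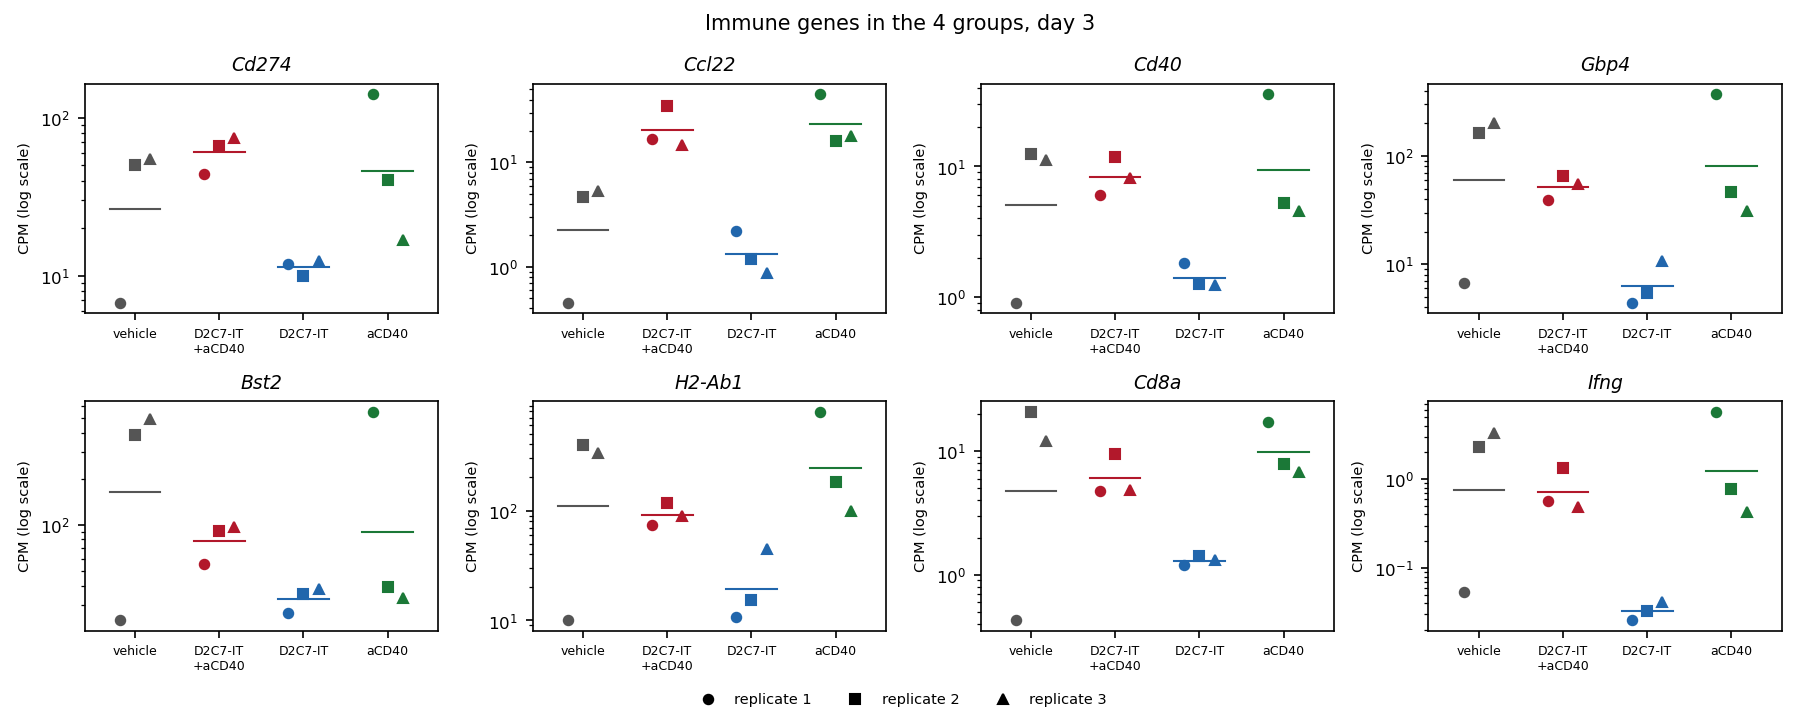
Levels of Cd274, Ccl22, Cd40, Gbp4, Bst2, H2-Ab1, Cd8a and Ifng in CPM on log axes, in the 3 tumours of each day 3 group, with a line at the mean of log2 CPM. For each gene the combination tumours lie above vehicle tumour 1 and above the D2C7-IT tumours, and vehicle tumours 2 and 3 lie above or near the combination except for Ccl22.

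Promoters of interferon genes were searched for the interferon-stimulated response element, as GAAA and after any 2 bases GAAA, and for the gamma-activated site, as TTCNNNGAA, on both strands, in the 300 bases of the RefSeq table (GRCm38.p6). The first was found in 9 of 17 matched interferon-gamma genes, 10 of 18 type I interferon genes and 4 of 14 MHC class I genes, against 3.99% of 27025 genes and 3.44% of 32851 windows. The second was found in 8 of 17, 3 of 18 and 1 of 14, against 9.55% of genes. Windows of 1 gene named above from each list are shown because these genes kept 1 order over the tumours. Capitals mark only gamma-activated site matches in Psmb8 and only response element matches in Bst2 and H2-T22.
Psmb8: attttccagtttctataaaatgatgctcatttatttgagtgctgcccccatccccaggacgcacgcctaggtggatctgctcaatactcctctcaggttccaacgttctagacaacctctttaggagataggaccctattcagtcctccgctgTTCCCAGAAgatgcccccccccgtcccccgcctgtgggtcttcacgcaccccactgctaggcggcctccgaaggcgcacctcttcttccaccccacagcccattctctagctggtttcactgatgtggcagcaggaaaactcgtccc
Bst2: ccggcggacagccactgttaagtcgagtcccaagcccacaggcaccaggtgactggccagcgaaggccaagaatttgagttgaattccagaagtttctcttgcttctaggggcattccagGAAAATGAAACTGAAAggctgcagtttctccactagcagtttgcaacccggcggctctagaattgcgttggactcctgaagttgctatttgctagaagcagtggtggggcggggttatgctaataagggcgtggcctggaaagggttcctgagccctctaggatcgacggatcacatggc
H2-T22: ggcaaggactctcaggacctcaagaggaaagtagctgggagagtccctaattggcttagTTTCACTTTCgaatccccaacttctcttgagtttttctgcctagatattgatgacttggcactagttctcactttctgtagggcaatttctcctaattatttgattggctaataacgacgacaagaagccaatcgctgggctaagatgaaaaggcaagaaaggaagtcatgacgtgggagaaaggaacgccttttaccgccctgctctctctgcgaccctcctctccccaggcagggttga
The Psmb8 window (chr17:34197945-34198244, plus strand) holds 1 gamma-activated site match that begins 97 bases before the start. The Bst2 window (chr8:71537423-71537722, minus strand) holds 2 overlapping response element matches from 130 bases before the start, and the H2-T22 window (chr17:36042693-36042992, minus strand) holds 1 from 191 bases before it. The Bst2 window also holds a gamma-activated site match, TTCCAGGAA, which runs into its response element matches and is not marked. A match describes letters only, and binding was not measured.

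Myeloid cells other than neutrophils split by subset. Of 15 monocyte and macrophage genes 12 lay between vehicle tumour 1 and the others, against 17.9% of all genes, with a median of -1.53. Ccr2, the receptor that brings monocytes into tissue, held 1.81, 50.9 and 50.4 CPM in vehicle and 6.07, 8.61 and 4.86 CPM in the combination. Vcan, a proteoglycan made by monocytes and by other cells, held 21.9, 250.1 and 236 CPM and 24.5, 26.2 and 29.0 CPM. Of 12 microglia markers none passed an unadjusted p under 0.05 or had groups without overlap, with a median of -0.12, and Tmem119 held 35.4, 88.8 and 80.0 CPM and 54.9, 49.9 and 55.5 CPM. Alternative and perivascular macrophage genes were lower in all 14 tested members, and 0 were called. At an unadjusted p under 0.05, 3 were lower, against 16.9% of all genes. In 3 the groups did not overlap, against 4.87% of all genes. Clec10a, a lectin of these macrophages and of dendritic cells, held 1.39, 2.03 and 1.60 CPM and 0.853, 0.859 and 0.897 CPM, below every vehicle tumour (-0.97 ± 0.33, adjusted p = 0.113). Of 14 complement genes 0 were called, 8 had negative fold changes with a median of -0.11, and 8 lay between vehicle tumour 1 and the others. Combination tumours were above all vehicle tumours in 3, against 9.78% of all genes. Of these, C4b held 165, 292 and 256 CPM and 481, 479 and 685 CPM and the complement inhibitor gene Serping1 12.4, 27.3 and 27.2 and 37.9, 37.9 and 40.4 CPM, both above all vehicle tumours (adjusted p = 0.147 and 0.237).

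Endothelial genes were mostly higher by fold change. Of 15 endothelial genes 14 had a positive fold change, against 50.9% of all genes, 8 had groups that did not overlap, against 9.78%, and 1 was called, Slc2a1. At an unadjusted p under 0.05, 7 were higher and 1 lower. Vwf, the clotting protein of endothelium, held 43.7, 68.5 and 63.2 CPM in vehicle and 70.8, 149 and 114 CPM in the combination (0.89 ± 0.23, adjusted p = 0.108). Pecam1, an endothelial junction protein, held 21.3, 30.4 and 28.8 CPM and 33.8, 45.6 and 38.0 CPM (0.51 ± 0.15, adjusted p = 0.109). The 13 pericyte, mural and fibroblast genes went both ways, with 0 called, 4 higher and 5 lower at an unadjusted p under 0.05, 3 above all vehicle tumours and a median of 0.21. Among them Rgs5, a regulator of G protein signalling, held 77.8, 62.8 and 61.0 CPM and 126, 129 and 146 CPM, and Kcnj8, a potassium channel subunit, 3.60, 4.38 and 3.16 and 6.70, 8.02 and 8.89 CPM. In Vwf, Pecam1, Rgs5 and Kcnj8 the combination tumours were above all vehicle tumours, and the endothelial median was 0.49 over the group and 0.30 beside vehicle tumour 1 alone.

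Erythroid transcripts had the highest median of the cell lists, 2.40 over 7 genes, 7 of them higher at an unadjusted p under 0.05 and 6 without overlap, against 9.78% of all genes, with 0 called. Hba-a1, an alpha globin gene, held 3.52, 8.08 and 5.64 CPM in vehicle and 19.4, 25.8 and 47.9 CPM in the combination (2.40 ± 0.49, adjusted p = 0.0815). Alas2, the erythroid enzyme of haem synthesis, held 0.854, 1.36 and 0.936 CPM and 3.43, 3.12 and 6.82 CPM, and Slc4a1, the anion exchanger of red cells, 0, 0.143 and 0.0535 and 0.585, 0.911 and 1.20 CPM. Every combination tumour exceeded every vehicle tumour in these 3 genes. Globin genes have near-identical copies, so the level of Hba-a1 alone is uncertain. At day 3 aCD40 tumours held 21.4, 29.9 and 30.6 CPM of Hba-a1 and D2C7-IT tumours 17.6, 28.8 and 11.3 CPM. Epb42, the called red cell gene, did not share this order in aCD40, at 0.0289, 0.0887 and 0.0530 CPM.

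Most genes of the brain cell lists had positive fold changes, against 50.9% of all genes. These were 18 of 18 neuron, 12 of 13 astrocyte and 12 of 12 oligodendrocyte genes, with list medians of 0.55, 0.56 and 0.86 and 0 called. In the same order of lists, the combination tumours were all above vehicle tumour 1 in 1, 4 and 5 genes, against 36.3% of all genes. They lay below vehicle tumour 1 and above the other 2 in 10, 1 and 0 genes, against 9.98%. Nefh, the heavy neurofilament, held 85.8, 51.4 and 41.1 CPM in vehicle and 95.1, 141 and 163 CPM in the combination. Aqp4, the water channel of astrocyte end feet, held 154, 139 and 139 CPM and 279.8, 209 and 284 CPM, and Aldh1l1, a folate enzyme of astrocytes, 60.0, 48.8 and 50.8 and 91.3, 76.3 and 95.0 CPM. The groups did not overlap for these 3 genes. Combination tumours were above all vehicle tumours in 1 of 18 neuron, 3 of 13 astrocyte and 5 of 12 oligodendrocyte genes, against 9.78% of all genes. Beside vehicle tumour 1 alone the neuron and astrocyte medians were -0.26 and -0.14, the reverse sign.

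**Figure D4:**
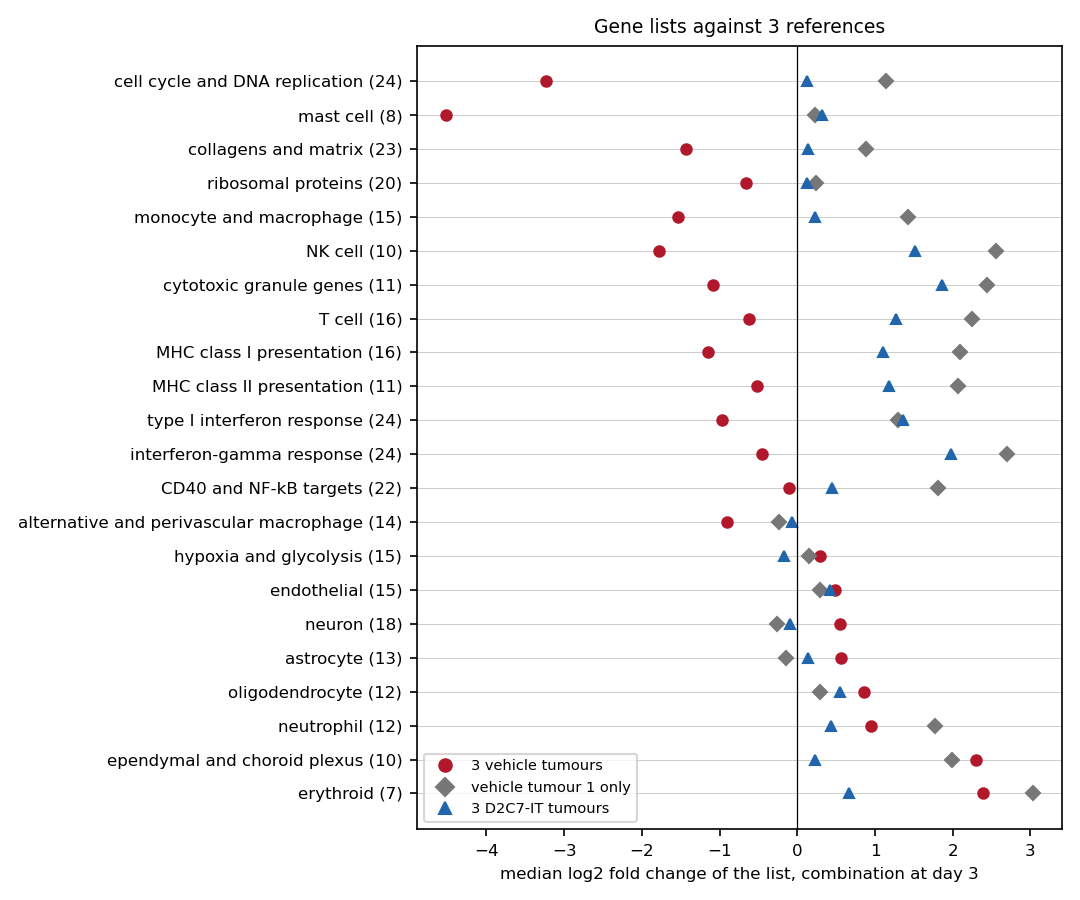
Median log2 fold change of the combination at day 3 for 22 gene lists, with the number of genes tested in parentheses, against the 3 vehicle tumours (red circles), against vehicle tumour 1 alone (grey diamonds) and against the 3 D2C7-IT tumours (blue triangles). The lists from cell cycle down to CD40 and NF-kB targets lie below 0 against the 3 vehicle tumours and above 0 against both other references, while erythroid, choroid plexus, neutrophil and endothelial lists lie above 0 against all 3 references.

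The comparison with D2C7-IT alone had groups of like Egfr level. Egfr held 21.02, 21.3 and 28.2 CPM in D2C7-IT tumours against 22.4, 18.9 and 21.8 CPM in the combination (-0.23 ± 0.95). Because Egfr is also the target of the toxin, like tumour content cannot be told from these levels. No gene was called in either direction (0.0%), with 320 higher and 224 lower at an unadjusted p under 0.05 (1.44% and 1.01%). Combination tumours stood above all D2C7-IT tumours in 23 of 24 interferon-gamma genes, 23 of 24 type I interferon genes, 14 of 16 MHC class I genes, 9 of 11 MHC class II genes, 13 of 16 T cell genes, 7 of 10 NK cell genes and 8 of 11 cytotoxic genes. Over all genes tested that share was 8.34%, and below all D2C7-IT tumours it was 2.89%. The medians were 1.98, 1.36, 1.11, 1.18, 1.26, 1.51 and 1.87 in the same order, against -0.01 over all genes.

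Single genes show the size of these gaps. Ccl22 held 2.19, 1.19 and 0.873 CPM after D2C7-IT and 16.6, 34.5 and 14.8 CPM after the combination (3.85 ± 0.74, adjusted p = 1.0). Cd274 held 11.8, 10.0 and 12.3 CPM and 44.2, 66.2 and 74.7 CPM (2.36 ± 0.82), and Cd40 1.81, 1.25 and 1.23 CPM and 6.07, 11.8 and 8.12 CPM (2.51 ± 0.88). Gbp4 held 4.41, 5.38 and 10.6 CPM and 39.3, 65.3 and 55.3 CPM (2.90 ± 0.94). None of these groups overlapped, and every adjusted p of this fit for these genes was 1.0. Ifng held 0.0258, 0.0330 and 0.0416 CPM after D2C7-IT, 4 reads over the 3 libraries, and 0.560, 1.33 and 0.489 CPM after the combination. Cd8a held 1.19, 1.42 and 1.31 CPM and 4.75, 9.58 and 4.89 CPM, and Cxcl13, a chemokine for B cells and follicular T cells, 0.929, 1.19 and 0.623 and 8.60, 16.9 and 7.91 CPM. The 3 combination tumours were above the 3 D2C7-IT tumours for all 7 genes. DESeq2 called 3 genes in this contrast (0.0135%), all higher: Ccl22, Dnase1l3 and Abhd12b, the last 2 named after the result was seen.

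A fit with the log2 level of Egfr as a covariate called more of these genes. Against D2C7-IT it called 81 genes, all higher (0.364%), of which 17 were among the 24 interferon-gamma genes and 6 among the 16 MHC class I genes. Against vehicle it called 47, all higher (0.211%), with Ccl22, Cd40, Icam1, Cxcl9 and Cdkn1a among them and 7 of the 9 genes called without the covariate. Egfr is also the target of the toxin, so with such a term tumour content and treatment cannot be told apart. The same term moved the median of the interferon-gamma list against vehicle from -0.46 to 1.92.

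Against aCD40 alone no gene was called (0.0%), with 815 higher and 1654 lower at an unadjusted p under 0.05 (3.66% and 7.42%). In that group tumour 1 was rich in Egfr and tumours 2 and 3 poor. B and plasma cell genes were lower than in all aCD40 tumours in 8 of 14 members, against 3.49% of all genes, with a median of -3.31. Their summed level overlapped, at 160.0, 208 and 139 CPM in the combination, 1419, 742 and 176 CPM in aCD40 and 115, 419.9 and 284 CPM in vehicle. MHC class II genes were below all aCD40 tumours in 6 of 11, with a median of -1.97. Fold changes were positive in 1 of 24 interferon-gamma, 3 of 24 type I interferon and 0 of 16 MHC class I genes. They were positive in 0 of 16 T cell, 0 of 10 NK cell and 1 of 11 cytotoxic genes. The medians were -0.68, -0.62, -1.08, -1.01, -1.66 and -1.30 in that order, against -0.04 over all genes. Combination tumours were below all aCD40 tumours in 0, 0, 0, 3, 1 and 1 of these genes. Ddit3, at 29.5, 27.9 and 28.5 CPM in aCD40, Cdkn1a, at 65.1, 19.6 and 27.5 CPM, and Cxcl1, at 0.174, 0.532 and 0.292 CPM, were above all aCD40 tumours in the combination, as were 5.79% of all genes, while Ccl22, at 45.3, 16.0 and 17.9 CPM, overlapped it.

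At day 0 the contrast of combination and vehicle had no call (0.0%), with 414 genes higher and 261 lower at an unadjusted p under 0.05 (1.86% and 1.17%). The difference between days had none either (0.0%), with 492 genes higher and 1301 lower at an unadjusted p under 0.05 (2.21% and 5.84%). Egfr held 49.6, 16.0 and 17.0 CPM in vehicle and 14.7, 23.2 and 15.7 CPM in the combination at day 0, below vehicle tumours 2 and 3 of day 3 in all 6. Endothelial genes were above all vehicle tumours in 8 of 15 at day 0 too, against 6.0% of all genes, with a median of 0.50. Vwf held 47.3, 45.2 and 31.1 CPM in vehicle and 65.7, 113 and 87.6 CPM in the combination at that time. Clec10a was below all vehicle tumours on both days, at 1.43, 1.48 and 1.82 CPM and 0.658, 0.735 and 0.628 CPM at day 0. Erythroid genes had a median of -1.73 at day 0, with 4 of 7 below all vehicle tumours against 3.32% of all genes, and 2.40 at day 3. Hba-a1 held 7.46, 11.8 and 30.0 CPM in vehicle and 3.77, 5.65 and 6.10 CPM in the combination at day 0, and its change between days was 4.12 ± 0.68 (adjusted p = 0.193). Cxcl1 held 0.370, 0.215 and 0.162 CPM and 0.861, 25.1 and 0.852 CPM, with 1 of the 3 combination tumours near the day 3 level.

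**Figure D5:**
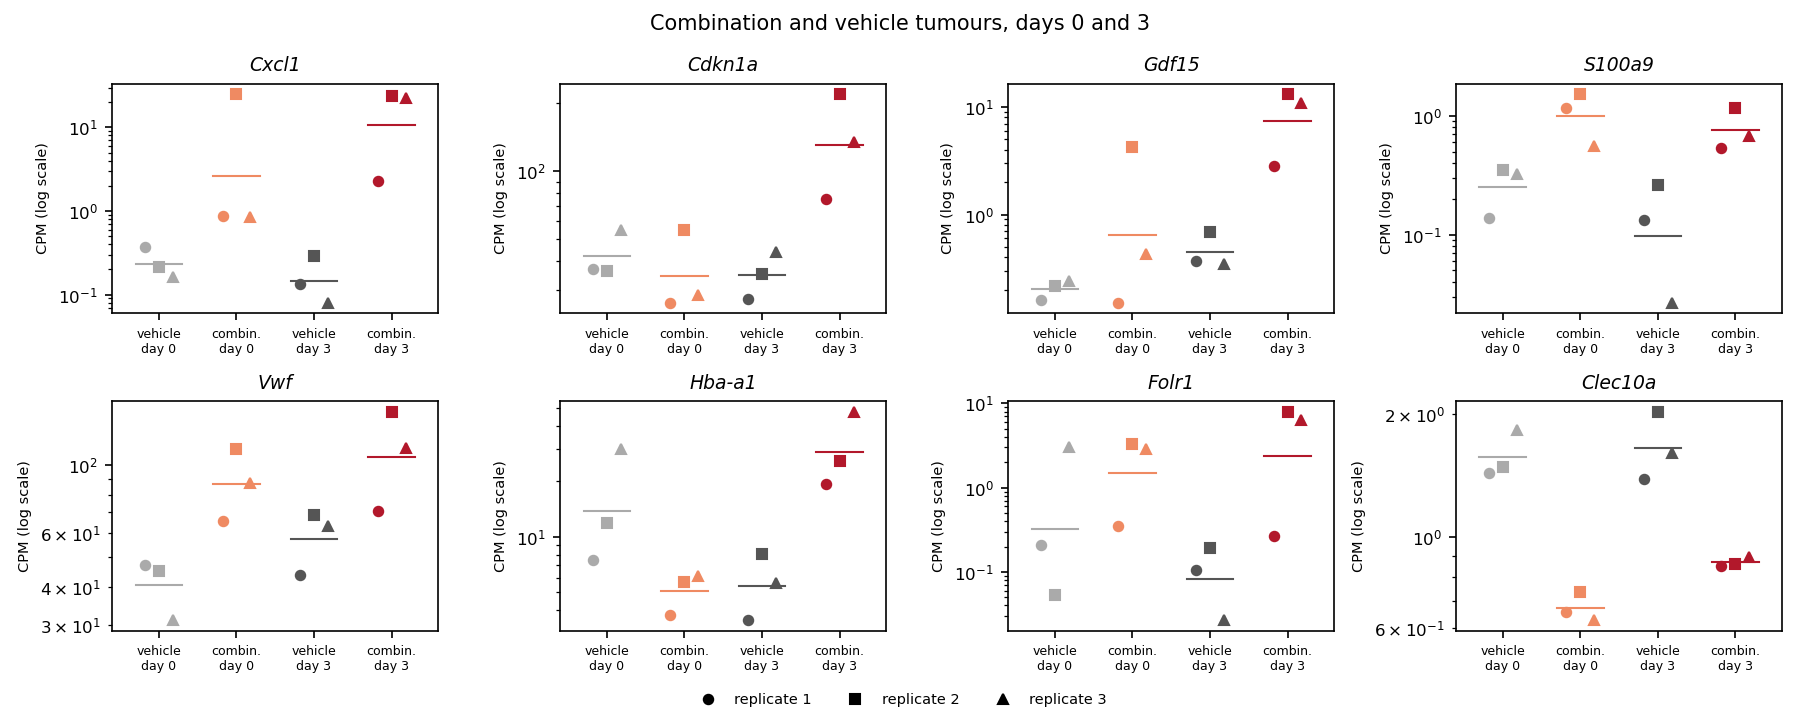
Levels of Cxcl1, Cdkn1a, Gdf15, S100a9, Vwf, Hba-a1, Folr1 and Clec10a in CPM on log axes, in vehicle and combination tumours at days 0 and 3, 3 tumours each, with a line at the mean of log2 CPM. Vwf and S100a9 lie above vehicle and Clec10a below it on both days, Cdkn1a and Gdf15 lie above vehicle without overlap at day 3, and Hba-a1 lies below vehicle at day 0 and above it at day 3.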

How the data were processed

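The authors deposited raw read counts per gene from bulk RNA-seq of 24 tumours, 3 in each of 8 groups, for 49315 mouse genes. The submitters' processing notes name GRCm38 as the genome and, in no stated order, Subread 1.5.2 (featureCounts), STAR 2.5.2b, Trimmomatic 0.36 and bcl2fastq 2.17. Neither the annotation release nor strand use in counting is stated there, so reads of overlapping or antisense genes cannot be told apart. GENCODE M21 named 49056 identifiers.

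Counts were tested with edgeR 4.0.16 (R 4.3.3) after its filter on low counts, which left 22280 genes. Library sizes were scaled by TMM, with 1 mean for each group over the 24 libraries (16 residual degrees of freedom), the robust quasi-likelihood test and Benjamini-Hochberg adjustment. The SE is the fold change divided by the root of F. List levels are means of log2 CPM with a prior count of 2. DESeq2 1.42.0, limma 3.58.1 and other alternatives were run, and the procedure was tested on simulated data. Those data were drawn for each gene independently, without a split of tumours within a group. The simulation therefore does not cover a split like that of the vehicle tumours. P-values measure the spread between these tumours.

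The members and gene lists were chosen with earlier results of these data known. Genes were named by a rule: called genes, then those of smallest p without overlap, the 4 members of smallest p in each list, and 7 fixed genes. List counts cover the members that passed the filter. Between replicates of a group, the chi-square per degree of freedom over genes was at least 28.2, so no pair agreed within counting noise.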

Additional observations from a re-analysis of the deposited data

How the results depend on the processing

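The 9 calls against vehicle depended on the tool and on single tumours. DESeq2 called 1720 genes (511 higher), limma voom with quality weights 14360 (7098 higher) and the fit with Egfr as a covariate 47. Voom gave vehicle tumour 1 a weight of 0.064 against 2.28 and 2.07 for the other 2. No gene was called with the 12 day 3 libraries alone (2761 at an unadjusted p under 0.05), with the 6 libraries alone (2722) or with vehicle tumours 2 and 3 left out (709). Leaving out 1 tumour gave 0 to 6956 calls. The count was 9 with DESeq2 size factors, 8 without a filter and 8 at a mean of at least 1 CPM, where Zhx2 was added. The Egfr difference of -2.39 ran from -3.94 to -1.54 with 1 tumour left out.

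Against D2C7-IT, where edgeR had 0 calls and 544 genes at an unadjusted p under 0.05, DESeq2 called 3, voom 22 and the Egfr covariate 81. Against aCD40, with 2469 at an unadjusted p under 0.05, DESeq2 called 221, voom 547 and the covariate 8, 1 of them lower, Bank1. Without a filter 3 were called there, Epb42 and Myo15 higher and Bank1 lower. Leaving out 1 tumour gave 0 to 89 calls, 89 without combination tumour 1 and 20 without aCD40 tumour 3. The difference between days, with 1793 at an unadjusted p under 0.05, had 10 calls by DESeq2, 1 of them lower (Igkv16-104), and 9056 by voom. Leaving out 1 tumour gave 0 to 3, which were Ddit3 without combination tumour 1 of day 3, and Alas2, Hba-a1 and Hba-a2 without vehicle tumour 1 of day 0. Genes named here beyond the rule were chosen after their values were seen.

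Replicate numbers were not taken as pairs. Same-numbered combination and vehicle tumours of day 3 had correlations of 0.32, 0.38 and 0.039 between their deviations from the group means, and tumour 3 did not correlate best with its own number. With the replicate block 10 genes were called against vehicle, 7 of them shared with the 9, with Tgm5, Gm20716 and Hbb-bt added. The block gave 1 call for the difference between days, Hbb-bt, and 0 against D2C7-IT and aCD40.

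Some log2 fold changes against vehicle changed sign. With vehicle tumours 2 and 3 left out, 25 did: Egfr 0.61, Ccnd1 0.55, Etv4 0.051, Mcm5 0.41, Ccna2 0.70, Rps2 0.14, Eef2 0.16, Vcan 0.17, Pdia4 0.19, Gbp4 2.90, Psmb8 2.36, Cxcl9 6.22, Oas2 0.64, Bst2 1.65, H2-T22 1.13, H2-Q7 3.23, Cd74 3.15, H2-Ab1 3.11, Cd8a 3.79, Gzmb 3.52, Prf1 2.06, Ifng 3.71, Klrk1 2.31, Ccr2 1.74 and Tmem119 0.50. With the Egfr covariate, 19 did: Ccnd1 0.13, Ccna2 0.10, Eef2 0.065, Gbp4 1.85, Psmb8 1.504, Cxcl9 3.54, Oas2 0.48, Bst2 1.16, H2-T22 0.51, H2-Q7 1.92, Cd74 1.67, H2-Ab1 1.82, Cd8a 2.22, Gzmb 1.83, Prf1 1.12, Ifng 2.175, Klrk1 1.38, Ccr2 0.95 and Tmem119 0.28. Cd40 was -0.45 with voom and -0.47 to 0.56 with 1 tumour left out, and Cd8a was -1.39 to 0.067. With DESeq2 size factors in edgeR no named gene changed sign or call. Depth was similar in the 6 libraries, and transcripts under 1 CPM, such as S100a8 and Ifng, rest on few reads.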
